A study of Mus musculus with 2 samples.

Results

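Follicular B cells are the mature, resting B cells that circulate through blood, spleen and lymph nodes and pass through the liver sinusoids with the blood. They carry IgM and IgD on their surface, express the low-affinity IgE receptor CD23, encoded by *Fcer2a*, and depend on the cytokine BAFF and on tonic signals through the B cell receptor for their survival. In the resting state they make few proteins, home to follicles by CXCR5 and CCR7, leave lymphoid organs under control of the transcription factor KLF2, and present antigen to T cells on MHC class II.

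The members described here were 1148 of the 16052 cells in 2 single-cell libraries of CD45+ leukocytes that had been sorted by FACS from mouse liver. They were chosen by measured values, on the counts of unique molecular identifiers (UMIs, each marking 1 captured transcript) of a few genes. A barcode with 1500 or more UMIs, under 10% of them mitochondrial, was a member if it held at least 2 UMIs of *Cd79a* (a signalling chain of the B cell receptor) and at least 1 of *Fcer2a*, none of *Cd3e* or *Vpreb3*, and under 5 of *Jchain*, *Igha*, *Ighg1*, *Ighg2b* and *Ighg3* together. *Cd3e* marks T cells, *Vpreb3* is highest in young B cells, and the last 5 genes mark plasma cells and class-switched B cells. One library came from vehicle-treated mice. The other came from mice given a mix of antibiotics in the drinking water for 1 week, with metronidazole and ampicillin at 1 mg/mL each and neomycin and vancomycin at 0.5 mg/mL each. The study's text gives 6-week-old female mice for both; the study bought C57BL/6 mice as its wild type, without naming the strain for these libraries, and how many mice gave cells to each is not stated. Both captures used the 10x Chromium 3′ v2 kit.

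With 1 library for each condition there was no replicate, so no test between conditions was made. The 95% intervals below are exact Clopper-Pearson intervals for shares, exact Poisson intervals for levels and exact conditional intervals for ratios of 2 counts. They cover counting error only, and a difference between the libraries cannot be told apart from a difference between the mice, the sorts or the captures. Ratios are antibiotic over vehicle. Levels are counts per 1e6 (CPM): the UMIs of a gene summed over the members of a library, scaled to the total of those members.

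The vehicle library held 883 members among 9002 cells, which was 9.81% (95% interval 9.20 to 10.4). The antibiotic library held 265 among 7050 cells, or 3.76% (3.33 to 4.23), so the ratio of the shares was 0.383 (0.333 to 0.440). All B cells (*Cd79a* at 2 or more UMIs, *Cd3e* at 0) made up 33.5% of the vehicle and 19.0% of the antibiotic cells, a ratio of 0.567 (0.532 to 0.605), while T cells (*Cd3e* present, *Cd79a* at 0) made up 37.2% and 53.4%. Among B cells alone, members were 29.3% (27.7 to 30.9) with vehicle and 19.8% (17.7 to 22) with antibiotics, a ratio of 0.676 (0.587 to 0.776). The members were thus a smaller part both of all cells and of the B cells in the antibiotic library, and neither pair of intervals overlapped.

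The other B cell groups made from *Fcer2a* and *Vpreb3* were also a smaller part of all cells in the antibiotic library, with higher ratios than members. These were 0.485 (0.428 to 0.549) with both genes, 0.839 (0.739 to 0.952) with *Vpreb3* alone and 0.683 (0.59 to 0.79) with neither. Their shares of B cells depend on each other and on that of the members. B cells with UMIs of both *Fcer2a* and *Vpreb3* numbered 937 and 356, or 31.1% and 26.6% of B cells. B cells with *Vpreb3* and no *Fcer2a* were 627 and 412, or 20.8% and 30.7% of B cells, a ratio of 1.48 (1.30 to 1.68). B cells with neither gene were 555 and 297, or 18.4% and 22.2%. Only 14 and 10 B cells had 5 or more UMIs of the plasma cell and switched genes. Without the condition on *Vpreb3* the members were 1820 and 621, or 20.2% and 8.81% of cells.

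**Figure D1:**
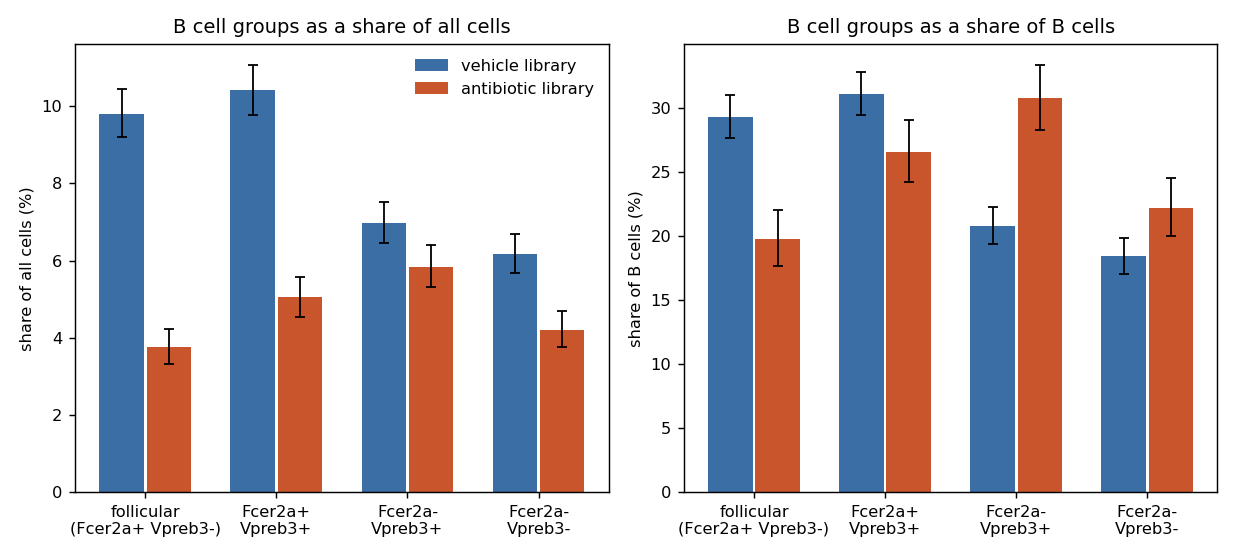
Share (%) of 4 B cell groups among all cells (left) and among B cells (right) in the vehicle and antibiotic libraries, with bars for the share and lines for its 95% Clopper-Pearson interval. Follicular B cells were 9.81% against 3.76% of cells and 29.3% against 19.8% of B cells. All 4 groups were a smaller part of all cells in the antibiotic library, and the group with *Vpreb3* and no *Fcer2a* was a larger part of B cells there.

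The libraries differed in depth, and the rule reads single UMIs. The median member held 2496 UMIs with vehicle and 2182 with antibiotics, with 2441127 and 648476 UMIs in all. After every B cell was thinned to 1500 UMIs, *Fcer2a* had a UMI in 45.5% (43.7 to 47.3) of vehicle and 36.6% (34.1 to 39.3) of antibiotic B cells, against 60.4% and 46.4% before thinning. In T cells, which lack CD23, the thinned shares were 0.389% and 0.345%, at median depths of 4075 and 3590 UMIs before thinning. *Vpreb3* went the other way, at 40.1% and 47.5% of thinned B cells. Applying the whole rule to thinned cells gave 9.08% and 3.76% of cells, and a minimum of 2000 UMIs gave 9.43% and 2.57%, a ratio of 0.273. Requiring 2 UMIs of *Fcer2a* gave 4.98% and 1.21%, a ratio of 0.242.

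Within the members *Fcer2a* stood at 678 CPM (646 to 711) in the vehicle and 595 CPM (537 to 658) in the antibiotic library. This level is a description, since the rule used the gene. Of the vehicle members 49.3% had exactly 1 UMI of it, 28.1% had 2 and 22.7% had 3 or more, while of the antibiotic members 67.9% had 1, 22.6% had 2 and 9.43% had 3 or more. Members just inside that threshold, with 1 UMI, had 908 and 1024 CPM of *Ighd*, and the 555 and 297 B cells just outside it, with none, had 655 and 984 CPM. For *Bank1* the same values were 455 and 435 CPM inside and 336 and 386 CPM outside. On the *Vpreb3* threshold, B cells with exactly 1 UMI of that gene (443 and 162) had 978 and 1053 CPM of *Ighd*, next to 918 and 1064 CPM in members. Few barcodes lay close to the other thresholds. Those with 1 UMI of *Cd79a* numbered 9 and 6 and carried 594 and 614 CPM of the T cell receptor gene *Trac*, and those with 1 UMI of *Cd3e* numbered 65 and 20 and carried 368 and 437 CPM, whereas members carried 55.3 and 47.8 CPM.

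The label of the members was checked on markers that the rule did not use. *Ighd*, which encodes the heavy chain of IgD, stood at 918 CPM (880 to 956) in the vehicle and 1064 CPM (986 to 1146) in the antibiotic members, and at 9.37 and 9.08 CPM in T cells. *Bank1*, a B cell scaffold protein, stood at 463 CPM (436 to 491) and 412 CPM (364 to 464), and at 3.83 and 3.52 CPM in T cells. After thinning to 1500 UMIs, 73.3% and 78.5% of members had a UMI of *Ighd* and 53.0% and 49.1% one of *Bank1*, against 1.5% and 1.33% and against 0.598% and 0.691% of T cells. Before thinning the member shares were 87.4% and 87.2% for *Ighd* and 70.7% and 64.2% for *Bank1*. *Cd79b* was seen in 99.7% and 98.5% of members. The members were B cells with transcripts of IgD in both libraries.

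Some markers of other B cell kinds were low, while other genes listed for them were not. *Cd93*, a receptor of transitional B cells, stood at 2.87 and 7.71 CPM, and *Myb*, of B cell precursors, at 2.05 and 1.54 CPM. *Bhlhe41*, a transcription factor of B-1 cells, was at 6.55 and 6.17 CPM in members and at 36.6 and 27.9 CPM in B cells with neither *Fcer2a* nor *Vpreb3*. The tetraspanin *Cd9*, high in B-1 and marginal zone B cells, was at 24.6 and 18.5 CPM in members and 64.6 and 54.4 CPM in the same other group. *Cr2* (CD21), high on marginal zone B cells and present on follicular ones, was at 59.4 and 46.3 CPM. The plasma cell regulator *Prdm1* was at 2.46 and 1.54 CPM. *Cd93*, *Myb* and *Prdm1* rested on 7 or fewer UMIs in each library, and *Bhlhe41* on 16 and 4. Other genes listed for these kinds were higher, among them *Ly6d* (immature B cells) at 1921 and 1792 CPM. *Mzb1* (plasma and marginal zone B cells) was at 500 and 447 CPM and *Plac8* (marginal zone B cells) at 656 and 404 CPM. *Vim* (B-1 cells) was at 269 and 296 CPM and *Sdc1* (plasma cells) at 21.7 and 7.71 CPM. Thus *Bhlhe41* and *Cd9* lay lower in members than in B cells with neither gene. This did not hold against B cells with both genes. *Cd9* was 1.99 times (1.28 to 3.135) as high in vehicle members and 1.33 times (0.545 to 3.23) in antibiotic members. For *Bhlhe41* the intervals against that group held 1 in both libraries. Against B cells with *Vpreb3* alone the *Cd9* intervals held 1. *Cr2* alone does not part follicular from marginal zone B cells.

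In the vehicle library the members also stood apart in some genes from B cells with *Vpreb3* and no *Fcer2a*. *Cd24a*, high on young B cells, was 0.360 times as high in members (0.327 to 0.396), *Ighd* 1.30 times (1.22 to 1.40) and *Cd55* (a complement regulator) 1.26 times (1.13 to 1.40). In the antibiotic library the same ratios were 0.600 (0.509 to 0.705) for *Cd24a*, 1.09 (0.983 to 1.2) for *Ighd* and 0.867 (0.703 to 1.06) for *Cd55*. The distance between members and the *Vpreb3* group in these genes was smaller in the antibiotic library for *Cd24a* and *Ighd*, and for *Cd55* the interval there held 1. *Bank1* did not part members from the *Vpreb3* group, at 1.02 (0.931 to 1.12) and 0.934 (0.799 to 1.09) times. The intervals of *Klf2*, *Cxcr5* and *Cr2* against that group also held 1 in both libraries, and *Cd38* was lower in vehicle members (0.803, 0.684 to 0.943). Against B cells with both genes, members differed less in *Ighd* and *Cd24a*. *Ighd* was 1.02 and 1.00 times as high, with intervals holding 1, and *Cd24a* 0.708 (0.641 to 0.782) and 0.764 (0.641 to 0.908) times. *Bank1* was 0.946 (0.873 to 1.03) and 0.837 (0.715 to 0.978) times as high.

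**Figure D2:**
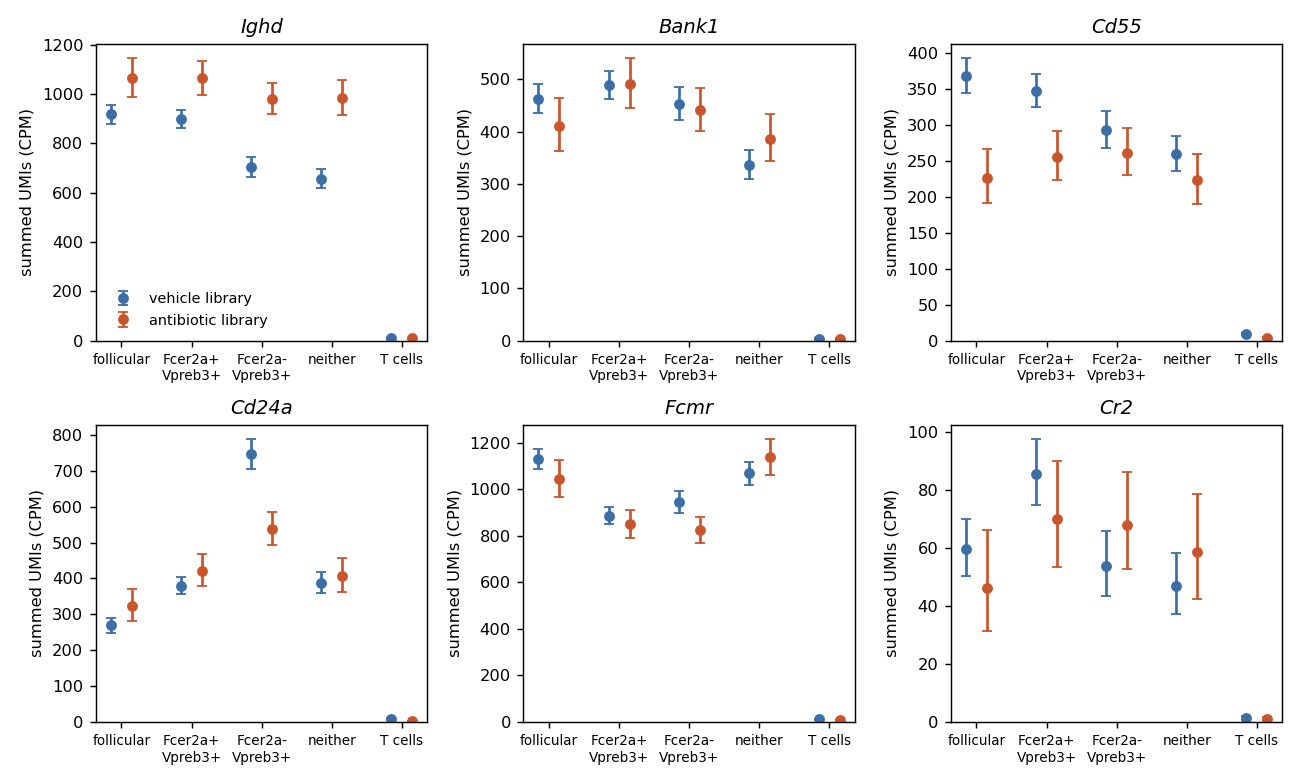
Summed level (CPM) of 6 genes in follicular B cells, 3 other B cell groups and T cells of each library, with exact Poisson 95% intervals. *Ighd* in members was 918 and 1064 CPM against 9.37 and 9.08 CPM in T cells, and *Cd24a* was highest in the group with *Vpreb3* and no *Fcer2a*.

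Most members carried some transcripts of T, NK and NKT cell genes, and single barcodes held many of other cells. At least 1 UMI of the T cell list was found in 601 of the 883 vehicle and 174 of the 265 antibiotic members. For the NK and NKT effector list the counts were 730 and 171. The 14 genes of the T cell list summed to 722 and 668 CPM in members, against 12735 and 11077 CPM in T cells. The 21 NK and NKT effector genes summed to 2226 and 1187 CPM in members and to 12896 and 11387 CPM in T cells. Among them *Ccl5* stood at 866 and 429 CPM in members and had a UMI in 30.0% and 23.8% of thinned members. Hepatocyte genes summed to 92.6 and 18.5 CPM and endothelial genes to 71.3 and 1.54 CPM. Erythroid genes summed to 2661 and 50.9 CPM, and 88.8% of the vehicle haemoglobin UMIs lay in 1 barcode of 5750 such UMIs. The 17 myeloid genes summed to 537 and 796 CPM. *C1qa*, *C1qb* and *C1qc* were at 0 in the antibiotic library, and *Lyz2* reached 293 CPM in the antibiotic members with 97.4% of its UMIs in 1 barcode. In what follows, members with other-cell UMIs are the 47 vehicle and 8 antibiotic ones with 10 or more UMIs of 30 other-cell markers. Leaving them out brought the sums to 398 and 426 CPM for T cell genes and 721 and 527 CPM for NK and NKT genes. Erythroid genes then summed to 76.6 and 34.8 CPM and myeloid genes to 507 and 418 CPM. Of the genes past the fold named below, *Sepp1* (ratio 0.719) and *Ciita* (1.47) were not past it without these barcodes, as was measured by leaving them out.

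Barcodes of under 100 UMIs were read as free RNA. From T cell genes in all members, it made up an estimated 9.05% of the vehicle and 6.69% of the antibiotic member UMIs. The members with other-cell UMIs were kept in, so the estimate also holds their T cell UMIs. In all, 93 barcodes were called cells in both libraries, of which 9 vehicle and 3 antibiotic barcodes were members and none was a member in both. Scrublet, which scores doublets by comparison with simulated ones, marked 23 and 4 of the members.

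Between the libraries, 2313 genes had a mean of at least 50 CPM in members. Of these, 103 (4.45%) were at least 1.5-fold higher and 42 (1.82%) at least 1.5-fold lower in the antibiotic library, and the median log2 ratio over all of them was 0.05. A ratio above 1 was found for 1315 of them and one under 1 for 998. Under TMM scaling, which moves the median of all genes to -0.09, the counts were 46 and 86, so the balance between higher and lower genes depended on the scale. Of the genes named below, *Cd69* (0.918), *Ly6e* (0.991), *Iglc2* (0.982), *Hspe1* (0.951) and *Cd79a* (0.946) had a ratio under 1 with TMM and above 1 without it, and the others kept their side of 1.

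The follicular identity genes, among which are *Fcer2a* and other genes close to the rule, mostly stayed within 1.5-fold. Of 17 measured, 1 was past 1.5-fold higher (against 4.45% of all genes) and 2 past 1.5-fold lower (against 1.82%). The median log2 ratio was -0.12, and the intervals of 4 genes lay above 1 and those of 6 below it. The higher gene was *Zfp318*, which is needed for IgD to be made from the long *Ighm*-*Ighd* transcript, at 85.2 CPM in vehicle members and 133 CPM in antibiotic members (ratio 1.56, 1.2 to 2.01). That ratio was under 1.5 with TMM (1.42), in thinned cells (1.43) and without the *Vpreb3* condition (1.41). *Ighd* itself had a ratio of 1.16 (1.06 to 1.26). In members the log2 ratios were 0.64 for *Zfp318* and 0.21 for *Ighd*. Both were larger in the 2 groups without *Fcer2a*. They were 0.88 and 0.48 in B cells with *Vpreb3* alone, and 0.94 and 0.59 in those with neither *Fcer2a* nor *Vpreb3*. B cells positive for *Fcer2a* and *Vpreb3* had 0.38 and 0.25.

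The lower identity genes were *Cd55*, at 368 and 227 CPM (ratio 0.616, 0.514 to 0.734), and *Ms4a4c*, a membrane-spanning gene of naive lymphocytes, at 366 and 208 CPM (0.569, 0.471 to 0.682). Each was seen in fewer thinned members of the antibiotic library, 29.4% against 42.4% for *Cd55* and 25.7% against 38.8% for *Ms4a4c*. *Cd55* was not past the fold when cells were thinned before the rule (0.739) or without the *Vpreb3* condition (0.681). *Ms4a4c* was not past it with 2 UMIs of *Fcer2a* (0.690). The homing receptors *Ccr7* (289 and 273 CPM) and *Cxcr5* (97.1 and 92.5 CPM) had intervals that held 1, as did the Fc receptor for IgM *Fcmr* (1131 and 1044 CPM). *Klf2* stood at 1671 and 2156 CPM (1.29, 1.21 to 1.37), and the B cell transcription factor *Ebf1* at 1389 and 1578 CPM (1.14, 1.06 to 1.22). In T cells *Klf2* had a log2 ratio of -0.46.

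The antigen receptor itself differed little. Of 11 measured genes of the receptor complex and its coreceptors none was past 1.5-fold, with a median log2 ratio of -0.15. *Ighm* stood at 3297 and 3699 CPM (1.12, 1.07 to 1.18), *Cd79b* at 2484 and 2242 CPM (0.903, 0.852 to 0.956) and *Ms4a1* (CD20) at 957 and 856 CPM (0.894, 0.814 to 0.982). The 14 measured signalling genes had a median of -0.04 and none past the fold. Among them the kinase *Btk* stood at 63.9 and 89.4 CPM (1.40, 1.02 to 1.90), and *Bcl10*, which links the receptor to NF-kB, at 138 and 97.2 CPM (0.704, 0.529 to 0.923).

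Of 10 measured inhibitory receptors and phosphatases 2 were past the fold, both higher (against 4.45% of all genes), with a median of 0.19. *Ptpn22*, a phosphatase that restrains antigen receptor signals, stood at 37.3 and 83.3 CPM (2.23, 1.57 to 3.16), and *Fcgr2b*, the inhibitory receptor for IgG, at 54.1 and 81.7 CPM (1.51, 1.08 to 2.09). *Siglecg*, a sialic acid receptor that dampens B cells, stood at 393 and 509 CPM (1.30, 1.14 to 1.47). For *Fcgr2b* the ratio was under 1.5 with TMM scaling, in thinned cells and without the *Vpreb3* condition, while *Ptpn22* stayed past it in all 13 alternatives run.

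Immunoglobulin light chains told many, but not all, members apart from each other. *Igkc* was at 15044 and 13530 CPM, and in 8.49% (6.74 to 10.5) of vehicle and 10.6% (7.14 to 14.9) of antibiotic members the *Iglc1*, *Iglc2* and *Iglc3* UMIs together outnumbered those of *Igkc*. The latter 3 genes are near copies, so their separate counts are uncertain. Members with at least 3 times more *Igkc* (555 and 156) held a median of 44 and 36 UMIs of it and still 8 and 7 UMIs of the lambda genes. Those with at least 3 times more lambda (50 and 16) held a median of 1 UMI of *Igkc* in each library. The remaining 278 of 883 vehicle and 93 of 265 antibiotic members met neither limit. A heavy chain V segment was seen in 17.9% and 22.6% of members, over 62 and 43 segments. The most frequent one was seen in 9 vehicle members (*Ighv1-15*) and in 3 antibiotic members (*Ighv3-6*), or 5.70% and 5% of the members with such a UMI.

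Among the lists with 8 or more measured genes, that with the highest median was that of glucocorticoid-induced and quiescence genes, which hold lymphocytes at rest or are switched on by steroid hormone. All 15 measured members had a ratio above 1, 7 were past 1.5-fold (against 4.45% of all genes) and the median log2 ratio was 0.56. This list and its ratios were in view when the members were chosen, so the count is a description. *Pik3ip1*, an inhibitor of PI3 kinase, stood at 74.6 CPM in vehicle members and at 202 CPM in antibiotic members (ratio 2.71, 2.15 to 3.41). *Tsc22d3*, the glucocorticoid-induced leucine zipper GILZ, stood at 414 and 796 CPM (1.92, 1.73 to 2.14). *Txnip*, which restrains glucose uptake and binds thioredoxin, stood at 201 and 369 CPM (1.84, 1.57 to 2.15). The antibiotic level was the higher one for each of these, and no pair of intervals overlapped.

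The same held for *Zfp36l2*, which drives decay of AU-rich mRNAs, at 116 and 248 CPM (2.14, 1.75 to 2.61), and for *Sesn1*, a stress-induced brake on mTORC1, at 75.4 and 150 CPM (1.98, 1.54 to 2.55). *Dusp1*, a phosphatase that turns off MAP kinases, stood at 42.6 and 105 CPM (2.46, 1.79 to 3.37), and *Pdcd4*, an inhibitor of translation, at 125 and 188 CPM (1.51, 1.21 to 1.86). *Pdcd4* stayed past the fold in 9 of 13 alternatives (1.375 with TMM). *Sesn1* did so in 12 of 13, with 1.385 at 2 UMIs of *Fcer2a*. *Dusp1* and *Btg1* of this list are also on the immediate early list below. The glucocorticoid receptor gene *Nr3c1* stood at 47.1 and 69.4 CPM (1.47, 1.02 to 2.10) and the transcription factor *Foxo1* at 77.0 and 102 CPM (1.32, 0.983 to 1.76). After thinning, *Tsc22d3* had a UMI in 45.9% (42.5 to 49.2) of vehicle and 63.4% (57.3 to 69.2) of antibiotic members, and *Pik3ip1* in 10.9% (8.90 to 13.1) and 23.4% (18.4 to 29.0). Unthinned, the shares were 59.6% and 75.1% and 17.9% and 36.6%. T cells, which use both genes, had thinned shares of 11.9% and 15.4% for *Tsc22d3* and of 8.64% and 12.8% for *Pik3ip1*.

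Other B cells had values of the same kind. The list had a median log2 ratio of 0.56 in B cells with both *Fcer2a* and *Vpreb3*, 0.31 in those with *Vpreb3* alone, 0.38 in those with neither and -0.01 in T cells. For *Tsc22d3* the log2 ratio was 0.94 in members, 1.11, 1.14 and 1.08 in the other 3 B cell groups and 0.43 in T cells. For *Sesn1* it was 0.99 in members, 0.78, 0.70 and 1.17 in the other B cells and -0.01 in T cells, whereas *Zfp36l2* had 1.10 in members and 1.01 in T cells. In free RNA *Tsc22d3* had 0.28 and *Zfp36l2* 1.02.

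*Cd200*, which encodes the ligand of an inhibitory receptor on myeloid cells and belongs to none of the lists, was among the 10 genes with the highest lower bound. It stood at 89.3 CPM in vehicle members and at 214 CPM in antibiotic members (2.40, 1.93 to 2.98), and 12.5% (10.4 to 14.8) of thinned vehicle and 24.5% (19.5 to 30.2) of thinned antibiotic members had a UMI of it, against 0.628% and 0.531% of T cells. Its log2 ratio was 1.59, 1.18 and 1.48 in the other 3 B cell groups and -0.04 in T cells.

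*Cirbp* and *Rbm3* encode RNA-binding proteins that cells make more of in the cold. *Cirbp* stood at 184 and 453 CPM (2.47, 2.12 to 2.86) and *Rbm3* at 450 and 871 CPM (1.94, 1.75 to 2.14). In T cells their log2 ratios were 1.49 and 0.88, next to 1.30 and 0.95 in members and 1.15 and 0.77 in free RNA. The other named genes with a high ratio were *Gm26917* (72.1 and 153 CPM) and *Gm5914* (27.0 and 81.7 CPM), which are gene models without a given name.

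**Figure D3:**
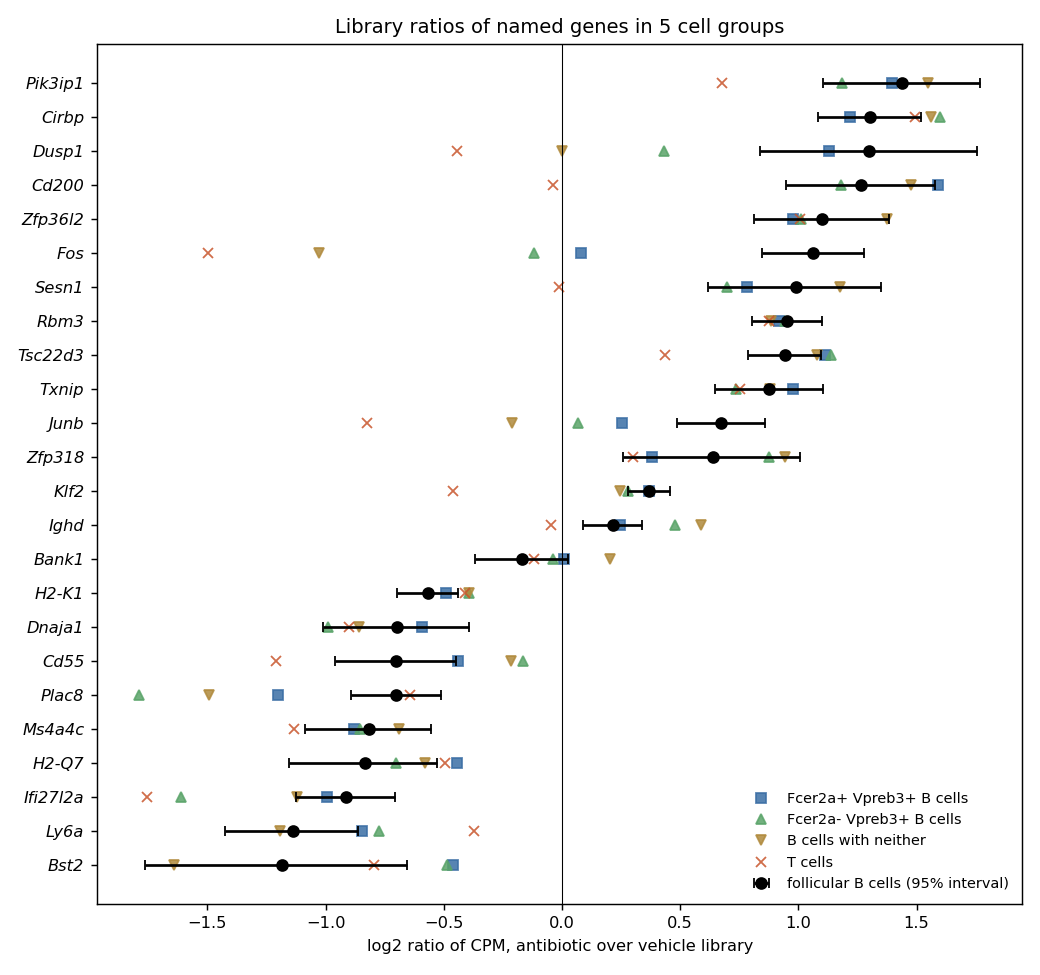
Log2 ratio of CPM (antibiotic over vehicle) of 24 named genes in follicular B cells (black, with exact conditional 95% interval), 3 other B cell groups and T cells. *Tsc22d3*, *Cd200* and *Sesn1* had high ratios in all 4 B cell groups, *Cirbp* and *Rbm3* also in T cells, and *Fos* ran from 1.06 in members to -1.5 in T cells.

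The immediate early genes, which encode AP-1 factors and other proteins made within minutes of a stimulus, differed in how UMIs were spread over cells. *Fos* stood at 202 CPM in vehicle members and at 421 CPM in antibiotic members (2.09, 1.80 to 2.43), yet the share of members with a UMI of it was 32.4% in vehicle and 21.5% in antibiotic members, and 21.9% and 17.0% after thinning. The share and the level thus went opposite ways. For the thinned share the intervals overlapped (19.17 to 24.73 and 12.66 to 22.05). In the antibiotic library 9 members with 10 or more *Fos* UMIs, up to 34, held 56.8% of them, and no vehicle member had more than 8. Without those 9 the ratio was 0.955.

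*Junb* (327 and 521 CPM, ratio 1.59) followed this pattern in part, with 28.4% of its antibiotic UMIs in 7 members. Its ratio stayed at 1.21 without the members of 10 or more UMIs. Unthinned, 50.2% of vehicle and 45.3% of antibiotic members had a UMI of it. *Jun* stood at 339 and 307 CPM, with 38.2% of its antibiotic UMIs in 5 members and a ratio of 0.58 without them, and its thinned shares were 32.8% and 17.7%. The heat shock gene *Hspa1a* stood at 404 and 398 CPM, but 35.2% of vehicle members and 10.9% of antibiotic members had a UMI of it. Of its antibiotic UMIs 77.1% lay in 10 members, and without the members of 10 or more UMIs the levels were 374 and 95.6 CPM, a ratio of 0.256. *Dusp1* kept a ratio of 2.09 without its 1 such member, and 9.63% of vehicle and 11.3% of antibiotic members had a UMI of it, unthinned.

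In all, 21 antibiotic and 8 vehicle members had 10 or more UMIs of *Fos*, *Jun*, *Junb* or *Hspa1a*. They held a median of 2870 and 2976 UMIs, and only 1 in each library was among the barcodes with other-cell UMIs. Their *Ighd* level was 766 and 580 CPM. A small set of antibiotic members thus held many UMIs of these genes. Beside it, fewer antibiotic than vehicle members were positive for *Fos*, *Jun* and *Hspa1a*. Shares of *Junb* and *Hspa1a* were not compared at equal depth. For *Fos* the intervals of the thinned shares overlapped.

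**Figure D4:**
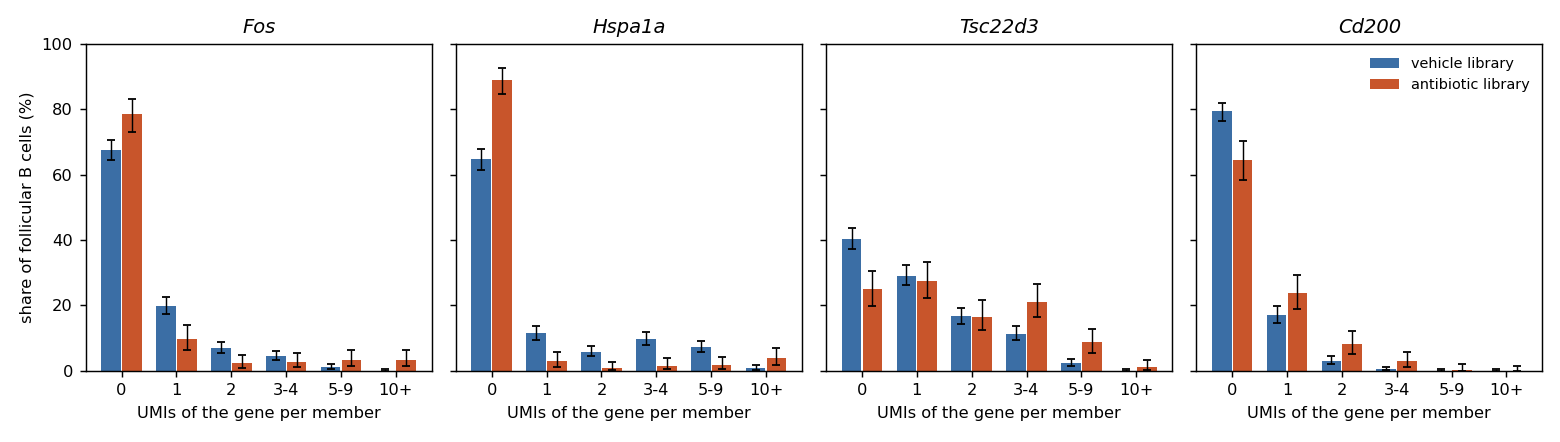
Share (%) of follicular B cells by number of UMIs of *Fos*, *Hspa1a*, *Tsc22d3* and *Cd200* per cell in each library, with 95% Clopper-Pearson intervals; cells were not thinned. For *Fos* and *Hspa1a* the antibiotic library had more cells at 0 (78.5% and 89.1%) and also more at 10 or more (3.4% and 3.77%), whereas *Tsc22d3* and *Cd200* had fewer cells at 0.

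Of the other heat shock genes 1 was past the fold lower. *Dnaja1*, a cochaperone of HSP70, stood at 257 and 159 CPM (0.617, 0.496 to 0.762), *Hsp90ab1* at 871 and 606 CPM (0.696, 0.624 to 0.776) and *Hspa8* at 1038 and 827 CPM (0.796, 0.724 to 0.874). *Hspe1*, a mitochondrial cochaperone, stood at 335 and 348 CPM, and its interval held 1. The 12 measured genes of the list, with *Cirbp* and *Rbm3* among them, had a median log2 ratio of -0.12. Past the fold were 2 higher (*Cirbp* and *Rbm3*, against 4.45% of all genes) and 1 lower (*Dnaja1*, against 1.82%).

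Interferon-induced genes came next. Interferons act through receptors at the cell surface and, from there, on elements in the promoters of antiviral genes. Of 20 measured genes none was past 1.5-fold higher and 6 were past 1.5-fold lower (against 1.82% of all genes), 17 had a ratio under 1, and the median log2 ratio was -0.17. *Bst2*, the virus-tethering protein tetherin, stood at 112 and 49.4 CPM (0.440, 0.295 to 0.635), and *Ly6a*, the surface antigen Sca-1, at 404 and 184 CPM (0.455, 0.373 to 0.551). *Ifi27l2a*, induced by type I interferon, stood at 618 and 328 CPM (0.531, 0.458 to 0.614). Each of these was lower in the antibiotic library, and no pair of intervals overlapped.

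The GTPase gene *Ifi47* stood at 67.6 and 38.6 CPM (0.570, 0.359 to 0.872) and *Plac8* at 656 and 404 CPM (0.616, 0.538 to 0.702). *Ifi47* was not past the fold with 2 UMIs of *Fcer2a* (0.92) or at a minimum of 2000 UMIs (0.696), nor was *Plac8* at the latter (0.776). In the antibiotic library 22.5% of the *Plac8* UMIs and 32.0% of those of *Ifi47* lay in 1 barcode. Members of the list with a high level and little difference were *Ly6e* (2682 and 2910 CPM, 1.09) and *Shisa5* (1673 and 1471 CPM, 0.879). After thinning, *Ly6a* had a UMI in 36.7% (33.5 to 40.0) of vehicle and 21.1% (16.4 to 26.5) of antibiotic members, and *Ifi27l2a* in 42.5% (39.2 to 45.8) and 25.3% (20.2 to 31.0). The list's median was -0.22, -0.29 and -0.29 in the other B cell groups, -0.39 in T cells and -0.35 in free RNA.

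Where the annotation gave a promoter, it was searched for the letters of the interferon-stimulated response element, GAAANNGAAA, on both strands. In RefSeq promoters (GRCm38.p6, 250 bases before to 50 after a gene's start) the letters were found for 3.99% of 27025 genes and for 4.35% of the 1794 measured genes that matched. Of the 16 interferon genes that matched, 4 held them (*Bst2*, *Ifi203*, *Phf11b* and *Shisa5*), and of the 13 quiescence genes none did. The ratios of *Ifi203*, *Phf11b* and *Shisa5* were 0.807, 0.902 and 0.879, within the fold. *Ifi47* and *Plac8*, past the fold lower, held no match. The *Bst2* promoter is shown because that gene had the lowest ratio in the list and 2 overlapping matches, here in capitals (chr8:71537423-71537722, minus strand).

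Bst2: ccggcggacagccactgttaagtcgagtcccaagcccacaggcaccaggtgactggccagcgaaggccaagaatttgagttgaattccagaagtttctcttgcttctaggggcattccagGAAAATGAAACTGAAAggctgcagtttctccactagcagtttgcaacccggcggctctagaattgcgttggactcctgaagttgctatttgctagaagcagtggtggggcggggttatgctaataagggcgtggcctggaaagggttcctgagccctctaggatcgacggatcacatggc

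The letters TGTTTAC, read by FOXO factors, were found for 4.05% of genes, 3.01% of the measured ones and 3 of the 13 quiescence genes (*Txnip*, *Btg1* and *Sesn1*). *Pik3ip1*, *Tsc22d3* and *Pdcd4*, past the fold higher, held no match. The *Txnip* promoter is shown with its match, on the opposite strand, in capitals (chr3:96557707-96558006, plus strand).

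Txnip: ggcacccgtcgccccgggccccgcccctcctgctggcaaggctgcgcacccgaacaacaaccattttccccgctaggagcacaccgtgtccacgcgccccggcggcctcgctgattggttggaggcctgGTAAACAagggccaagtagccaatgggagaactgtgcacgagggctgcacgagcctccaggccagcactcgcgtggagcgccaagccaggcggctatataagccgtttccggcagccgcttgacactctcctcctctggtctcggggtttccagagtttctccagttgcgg

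Both matches are letters in these windows and describe no binding.

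MHC class I genes, which present cytosolic peptides to CD8 T cells, had small differences. Of 19 measured genes 16 had a ratio under 1, against 998 of all 2313 genes, 1 was past the fold lower, against 1.82% of all genes, and the median log2 ratio was -0.28. *H2-K1* stood at 1321 and 891 CPM (0.675, 0.617 to 0.738), the light chain *B2m* at 3056 and 2466 CPM (0.807, 0.764 to 0.852) and *H2-Q7*, the gene past the fold, at 269 and 151 CPM (0.561, 0.449 to 0.694). These genes have near copies, so reads could be split between them. The list's median was -0.22, -0.22 and -0.36 in the other B cell groups and -0.34 in T cells.

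MHC class II genes differed less, with a median of -0.08 over 12 measured genes. *Cd74*, the invariant chain, stood at 27287 and 26147 CPM (0.958, 0.942 to 0.975), *H2-Aa* at 6175 and 5841 CPM (0.946, 0.913 to 0.980) and *H2-Ab1* at 6123 and 5818 CPM (0.950, 0.917 to 0.985). Of these genes 1 was past the fold, and higher, against 4.45% of all genes. It was *Ciita*, the master regulator of class II, at 66.0 and 100.2 CPM (1.52, 1.12 to 2.04), and it was under 1.5-fold in 8 of 13 alternatives.

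**Figure D5:**
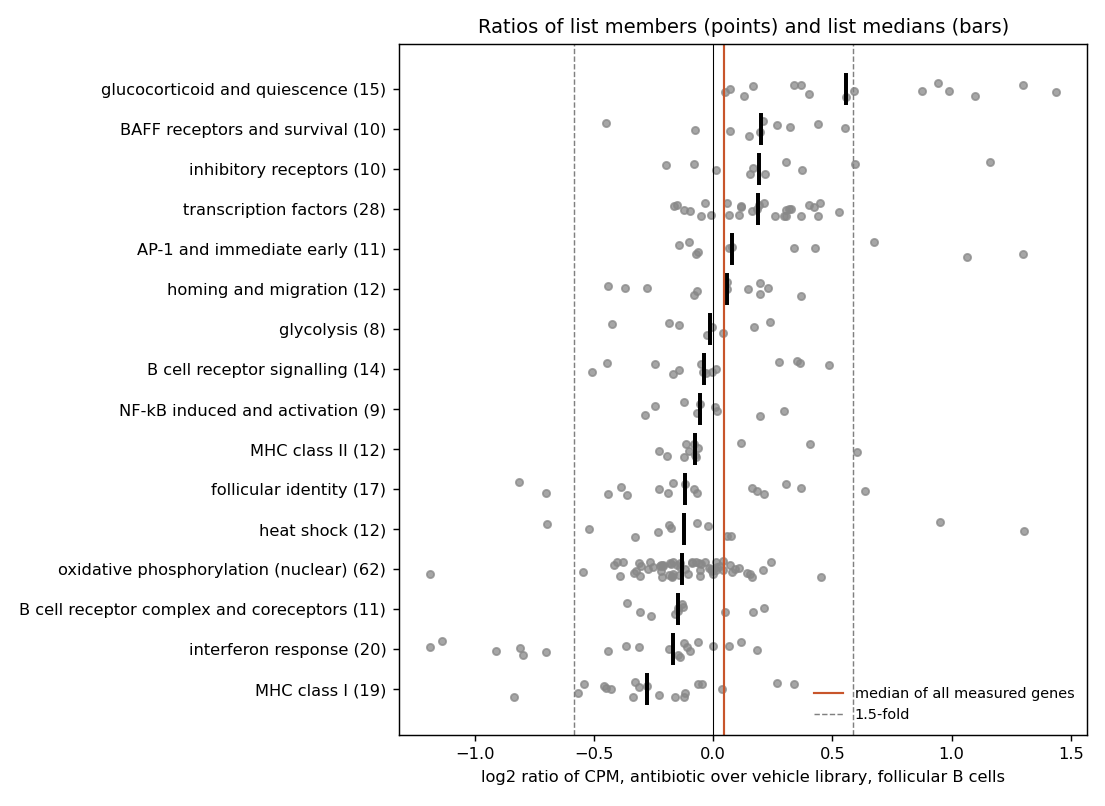
Log2 ratio of CPM (antibiotic over vehicle) of each measured gene (points) in 16 lists of 8 or more measured genes, the number in parentheses, with the list median as a bar; dashed lines mark 1.5-fold and the orange line the median of all measured genes, 0.05. The glucocorticoid and quiescence list lay highest, at 0.56, and MHC class I lowest, at -0.28.

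No gene of survival or of the transcription factor list was past the fold. Of 10 measured BAFF receptor and survival genes none was past 1.5-fold, and the median was 0.20 (0.07 with TMM). *Tnfrsf13c*, the BAFF receptor, stood at 201 and 294 CPM (1.47, 1.24 to 1.74) and the antiapoptotic *Bcl2* at 207 and 281 CPM (1.36, 1.14 to 1.61). Of 28 transcription factors 21 had a ratio above 1, as did 1315 of all 2313 genes, and the median was 0.19 (0.058 with TMM). *Pou2f2* (OCT2) stood at 276 and 375 CPM (1.36, 1.17 to 1.57), *Id3* at 193 and 259 CPM (1.34, 1.12 to 1.60) and *Mef2c* at 888 and 1030 CPM (1.16, 1.06 to 1.27).

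Sensors of microbial products were mostly under the limit. Of 21 Toll-like receptor and related genes only 4 were measured. *Cd180*, a Toll-like receptor homologue on B cells, stood at 98.7 and 147 CPM (1.48, 1.16 to 1.89), its partner *Ly86* at 312 and 292 CPM (0.934, 0.792 to 1.10), *Unc93b1*, which carries nucleic acid sensors to endosomes, at 314 and 390 CPM (1.24, 1.07 to 1.43), and *Irf5* at 120 and 143 CPM (1.2, 0.939 to 1.52). Of 9 measured NF-kB induced and activation genes none was past the fold, and the median was -0.05. *Cd69*, an early activation marker, stood at 241 and 242 CPM, and was seen in 27.7% and 27.9% of thinned members.

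Of 62 measured nuclear genes of oxidative phosphorylation 45 had a ratio under 1, against 998 of all 2313 genes, with a median of -0.13. Only 1 was past the fold lower, against 1.82% of all genes. This gene was *Ndufb2*, a subunit of complex I, at 112 and 49.4 CPM (0.440, 0.295 to 0.635). The 8 glycolysis genes had a median of -0.01 and 12 homing genes a median of 0.06. Of 6 measured cell cycle genes 1 was past the fold higher (against 4.45% of all genes), *Pcna*, at 35.2 and 66.3 CPM (1.88, 1.27 to 2.74). None of the 10 germinal center genes was measured.

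The remaining genes with the lowest upper bounds were *Cd7*, *Sepp1* and *Dynll1*. *Cd7*, a gene of T and NK cells, stood at 109 and 26.2 CPM (0.240, 0.138 to 0.391), had a log2 ratio of -1.01 in T cells, and was lower together with the NK and NKT effector list, at 2226 and 1187 CPM. Its ratio was 0.420 without the members holding other-cell UMIs and 0.125 with free RNA subtracted. *Sepp1*, a secreted selenoprotein, stood at 83.2 and 35.5 CPM (0.427, 0.264 to 0.658), with 34% of the vehicle UMIs in 1 barcode, and its ratio was 0.719 without the members holding other-cell UMIs and 0.845 in thinned cells. *Dynll1*, a dynein light chain, stood at 409 and 238 CPM (0.580, 0.487 to 0.688), and its log2 ratio of -0.79 lay beside -0.81, -1.04 and -1.05 in the other B cell groups and -1.11 in T cells.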

How the data were processed

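The deposited values were whole-number UMI counts per gene and barcode, made by the authors with bcl2fastq and Cell Ranger on mm10 per the labels. Their versions are not given in the sources used here. Totals were 41474311 (vehicle) and 29811401 (antibiotic) UMIs over 28692 genes. Barcodes were kept and members chosen as described above. Member UMIs were summed per library, divided by their total and compared as a ratio where the mean was at least 50 CPM. Past the fold means at least 1.5-fold. Named genes were the markers and the follicular identity list, the 10 highest and 10 lowest ratios by the interval bound nearest 1 (leaving out ribosomal, mitochondrial, haemoglobin, T cell receptor, immunoglobulin genes and other-cell markers), the up to 5 most abundant members of each list, list members past the fold, and immunoglobulin constant genes. Others named here were chosen after their values were seen. The members, lists and alternatives were chosen with earlier results of these data known. A count of 0 allows up to 3 counts, or 1.23 CPM (vehicle) and 4.63 CPM (antibiotic). Thinning drew 1500 UMIs per cell. Scrublet, run in scanpy 1.11.5, marked 4.44% and 2.00% of cells, which were kept. Doublets, shared barcodes and free RNA were left out in turn as alternatives, next to other minimums, TMM factors (edgeR 4.0.16, R 4.3.3, factors only) and totals. The ratio code was checked on simulated data. Other software was Python 3.11.15, numpy 2.4.6, scipy 1.17.1 and pandas 2.3.3. Some named-rule genes are not reported here.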

Additional observations from a re-analysis of the deposited data

Results flagged for a closer look

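Of the genes named here with a mean of at least 50 CPM in T cells as well, 3 were past 1.5-fold in both cell types and in opposite directions. Others differed in sign without passing the fold in both, or were under that level in T cells. *Fos* had a log2 ratio of 1.06 in members and -1.5 in T cells (155 and 54.9 CPM), a gap of 2.56. *Junb* had 0.67 and -0.82 (495 and 280 CPM in T cells), a gap of 1.5. *Lyz2*, a myeloid gene, had 2.87 and -1.93, a gap of 4.80, and 97.4% of its UMIs in antibiotic members lay in 1 barcode. With 1 library per condition these differences were not tested. Without the members of 10 or more UMIs, *Fos* had a ratio of 0.955 and *Junb* 1.21 in members.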

How the results depend on the processing

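The lower share of members in the antibiotic library kept its direction in all 9 alternatives. Its ratio among cells was 0.242 with 2 UMIs of *Fcer2a* and 0.273 with a minimum of 2000 UMIs, and among B cells it was 0.427 with 2 UMIs of *Fcer2a*. The cause was not tested.

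The count of genes past the fold depended on the settings. The higher and lower counts were 259 and 141 with 2 UMIs of *Fcer2a*, 46 and 86 with TMM, 414 and 202 at the lower fold tried, 14 and 15 at 2-fold, 821 and 389 at 10 CPM, 13 and 12 at 200 CPM, 2314 and 1160 with no filter, and 236 and 85 with totals that leave out immunoglobulin, ribosomal and mitochondrial UMIs. The higher count was 173 in thinned cells and 60 without the *Vpreb3* condition. The last was chosen after seeing the data, as was leaving out members with other-cell UMIs.

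The identity list median was 0.049 with 2 UMIs of *Fcer2a*, -0.25 with TMM and -0.25 at 2000 UMIs. MHC class II had -0.002 with 2 UMIs of *Fcer2a* and -0.21 with TMM, interferon genes -0.30 with TMM, -0.33 thinned and -0.28 at 2000 UMIs, transcription factors 0.058 with TMM, and early genes 0.43 with no filter. The quiescence median ran from 0.37 to 0.73 and MHC class I from -0.41 to -0.21 over 16 alternatives. Of 33 named genes past the fold, 19 stayed past it in every alternative that gave a value. *Lyz2* had a ratio of 0.291 in thinned cells and 0.238 without members holding other-cell UMIs.

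No paired analysis was possible because each condition had 1 library. There was no replicate to leave out. At 265 antibiotic members, genes under the 50 CPM minimum were not compared.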
